A study of Saccharomyces cerevisiae with 4 samples.

Results

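The histone genes of budding yeast (Saccharomyces cerevisiae) were examined in a strain whose Swd2 protein carries a 9Myc tag at its N terminus (9Myc-Swd2) and in its isogenic wild type (WT). They were the 10 rows of the 6697-gene table whose gene name was that of a core histone gene, of HTZ1 or of the linker histone gene HHO1. RNA sequencing libraries were made from total RNA of cells grown at 30 °C in rich glucose medium (YPD) to an OD600 of 1.0, with 2 libraries for 9Myc-Swd2 and 2 for WT. Swd2 belongs both to COMPASS, the histone H3 lysine 4 methyltransferase, and to the machinery that cleaves and polyadenylates mRNA. The labels give no other genotype, leave out whether the tagged strain is a single clone, and do not name the culture behind each library. p-values therefore measure the spread between these libraries, which may be technical.

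Core histones H2A, H2B, H3 and H4 form the protein spool around which nuclear DNA is wound. In budding yeast each is encoded by a pair of gene copies, and the copies lie in divergent pairs, HTA1-HTB1 and HTA2-HTB2 for H2A and H2B, and HHT1-HHF1 and HHT2-HHF2 for H3 and H4. The members of a pair are read away from each other from a shared intergenic promoter, and the mRNAs accumulate in S phase, when new chromatin is assembled. Htz1 is the H2A.Z variant, which the SWR1 complex exchanges for H2A next to promoters, and Hho1 is the linker histone of yeast. The activator Spt10 binds paired upstream elements in the core histone promoters. The HIR complex, with the chaperones Asf1 and Rtt106, represses all core histone pairs except HTA2-HTB2 outside S phase.

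Positions and sequences are from RefSeq assembly R64, which sacCer3 names. None of the 10 genes lies on chromosome XI, the chromosome of SWD2. HTB1 and HTA1 lie on chromosome IV, at 914317-914712 on the minus strand and 915530-915928 on the plus strand. HTA2 (235394-235792, minus strand) and HTB2 (236492-236887, plus strand) lie on chromosome II, as do HHF1 (255373-255684, minus strand) and HHT1 (256331-256741, plus strand). HHT2 (575640-576050, minus strand) and HHF2 (576727-577038, plus strand) lie on chromosome XIV. HTZ1 lies on chromosome XV (303579-303983, minus strand) and HHO1 on chromosome XVI (308828-309604, minus strand). The intergenic regions of the pairs measured 817, 699, 646 and 676 bases for HTA1-HTB1, HTA2-HTB2, HHT1-HHF1 and HHT2-HHF2.

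The central 200 bases of these intergenic regions are shown because both genes of a pair share them. Capitals mark matches to the Spt10 upstream activating element, an exact search of its consensus on both strands. The HTA1-HTB1 sequence is the plus strand of chrIV:915022-915221, where the second match lies on the minus strand and its capitals are the reverse complement. The others are the minus strands of chrII:236043-236242, chrII:255908-256107 and chrXIV:576289-576488.
HTA1-HTB1: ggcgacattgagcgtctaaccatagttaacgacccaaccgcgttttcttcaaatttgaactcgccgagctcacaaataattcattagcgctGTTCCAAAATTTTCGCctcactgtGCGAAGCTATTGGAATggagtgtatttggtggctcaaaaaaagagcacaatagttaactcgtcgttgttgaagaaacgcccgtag
HTA2-HTB2: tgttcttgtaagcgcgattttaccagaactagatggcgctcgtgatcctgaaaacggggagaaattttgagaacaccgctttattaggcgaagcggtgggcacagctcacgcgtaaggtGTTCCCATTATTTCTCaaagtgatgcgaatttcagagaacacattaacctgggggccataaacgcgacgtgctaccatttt
HHT1-HHF1: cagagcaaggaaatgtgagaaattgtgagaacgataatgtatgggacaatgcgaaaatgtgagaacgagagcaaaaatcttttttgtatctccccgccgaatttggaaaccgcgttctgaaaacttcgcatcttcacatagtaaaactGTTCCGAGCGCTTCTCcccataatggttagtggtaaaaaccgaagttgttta
HHT2-HHF2: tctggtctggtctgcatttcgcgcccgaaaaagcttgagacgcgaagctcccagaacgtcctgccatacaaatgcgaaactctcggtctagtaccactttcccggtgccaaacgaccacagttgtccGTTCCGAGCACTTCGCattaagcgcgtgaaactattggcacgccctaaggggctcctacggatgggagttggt
The matches alone, read on the strand that holds the motif were as follows. Capitals mark the letters that the consensus restricts, of which the first may be G or A, and lower case the free letters.
HTA1-HTB1: GTTCCaaaattTTCgC
HTA1-HTB1: ATTCCaatagcTTCgC
HTA2-HTB2: GTTCCcattatTTCtC
HHT1-HHF1: GTTCCgagcgcTTCtC
HHT2-HHF2: GTTCCgagcacTTCgC
In these windows 1 match was present at each pair except HTA1-HTB1, which held 2 matches on opposite strands. Of the 1418 intergenic regions of at least 200 bases between divergent protein-coding genes, 8 held a match in their central 200 bases (0.564%), and 4 of these 8 were the histone pairs. In the 300 bases before the coding start, where 0.450% of 6001 genes held a match, HHF1 was the only one of the 10 histone genes with a match. Because the element is one that Spt10 binds in core histone promoters, matches at these pairs were foreseen and are no independent result. A match describes these letters and does not show that Spt10 was bound.

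Values are the authors' normalized counts, fold changes are 9Myc-Swd2 over WT on the log2(value + 1) scale with their standard error (SE), and adjusted p-values are those of limma-trend over all 6503 genes tested, two-sided, with a threshold of 0.05. Column sums divided by the column's step were 7849193 and 8316221 for 9Myc-Swd2 and 8388090 and 8327878 for WT. These sums would be the reads per library if a step is 1 read, which was not established for every column. The tagged gene, SWD2, was at 1080.4 and 969 normalized counts in 9Myc-Swd2 and 335 and 351 in WT. The tag does not change which gene the reads map to, so this level does not by itself check the tag. On chromosome XI, where SWD2 lies, 310 of 342 genes tested rose (median 0.90), and chromosome XI took 9.66% and 9.41% of the counts in 9Myc-Swd2, against 5.78% and 5.80% in WT. Markers of alpha cells (STE3, MF(ALPHA)1, MF(ALPHA)2 and SAG1) summed to 10522 and 9539.5 normalized counts in 9Myc-Swd2 and to 11212 and 11805 in WT. The a cell markers STE2, MFA1, MFA2 and BAR1 summed to 407 and 400.2 in 9Myc-Swd2 and to 392 and 299 in WT. Of the a cell markers MFA1 rose (1.56 ± 0.28), from low counts of 19 and 15 in WT to 55 and 47, and 3 did not pass. Of the alpha cell markers MF(ALPHA)2 (-0.69 ± 0.08) and SAG1 (-0.20 ± 0.07) fell and 2 did not pass. In the authors' deposited table the adjusted p of SAG1 was 0.0925. The mating type is not in the labels.

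All 8 core histone genes and HTZ1 fell in 9Myc-Swd2, and HHO1 did not pass the threshold. Among all genes tested 21.4% fell and 22.3% rose, and among the 1877 genes with a mean of at least 1000 normalized counts 31.0% fell and 33.8% rose. The number of genes that fell was 1393, and it was 780 without WT replicate 2. With libraries scaled to total counts 1196 genes rose and 1728 fell, against 1448 and 1393 here. Log2 fold changes of the 8 core histone genes had a median of -0.47, against 0.00 for all genes and 0.01 for those with a mean of at least 1000. Off chromosome XI, where all 10 genes lie, 22.6% of genes fell and 18.5% rose (median -0.02). Of the 1717 genes there with a mean of at least 1000, 581 fell and 479 rose (median -0.03). In 9 of the 10 genes both 9Myc-Swd2 libraries lay below both WT libraries, as in 35.6% of all genes and 40.8% of those with a mean of at least 1000, while 36.0% of all genes were above in both. In the authors' deposited table the same 9 genes were lower at an adjusted p under 0.05, against 15.5% of genes lower and 17.8% higher there. The 10 genes together took 0.328% and 0.347% of the counts in 9Myc-Swd2 and 0.488% and 0.510% in WT. Because these mRNAs are made in S phase, fewer cells in S phase and less histone mRNA per cell cannot be told apart in bulk RNA. Both 9Myc-Swd2 libraries also held the rise across chromosome XI. The tag and that rise therefore cannot be told apart, and the part of each in the histone values was not tested.

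**Figure D1:**
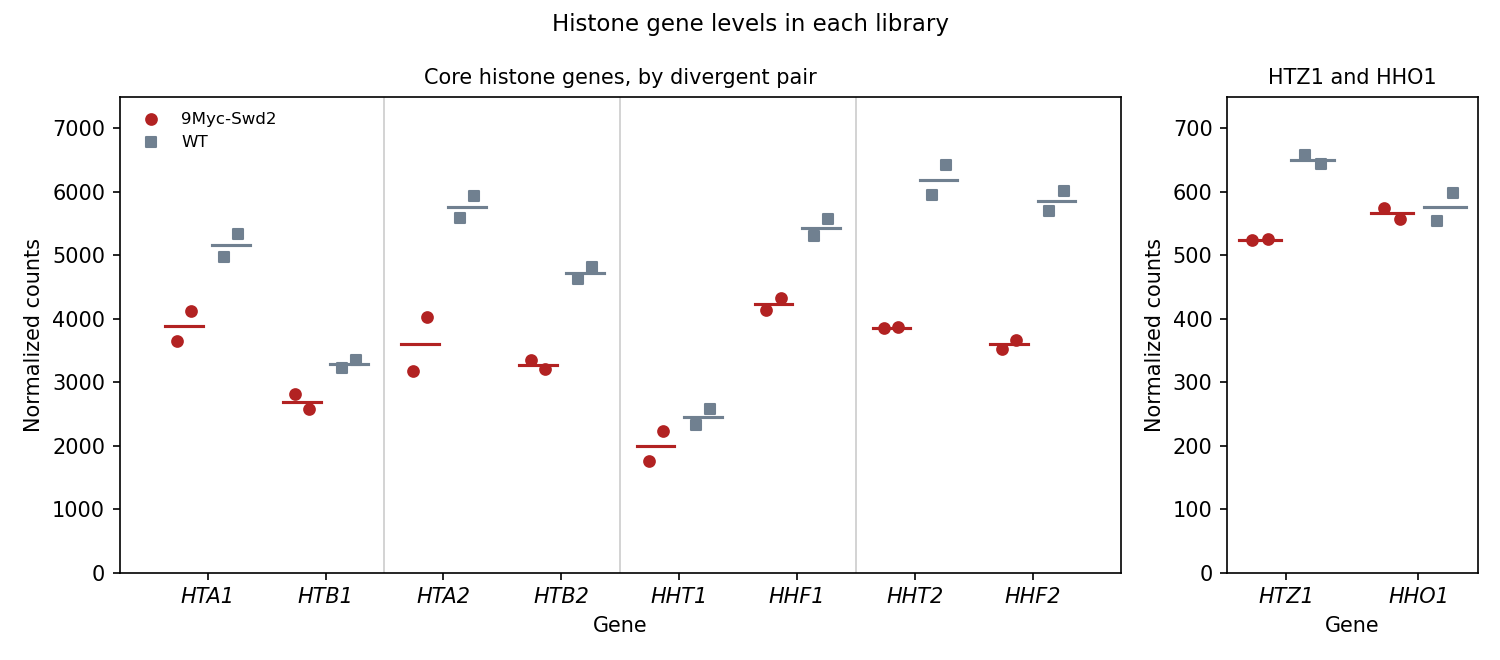
Normalized counts of the 10 histone genes in each library, with circles for 9Myc-Swd2, squares for WT and a bar at the mean of the 2 libraries of a group. Core histone genes stand by divergent pair in the left panel, and HTZ1 and HHO1 have an axis of their own. Both circles lie below both squares for every gene except HHO1.

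The H3 and H4 pair HHT2-HHF2 fell the most of the 4 pairs. HHT2, a gene for histone H3, was at 3846 and 3871 normalized counts in 9Myc-Swd2, against 5949 and 6425 in WT. HHF2, its H4 partner, was at 3526 and 3663 in 9Myc-Swd2, against 5692 and 6011 in WT. In both genes the highest 9Myc-Swd2 library was well below the lowest WT library. The fit gave log2 fold changes of -0.68 ± 0.07 for HHT2 (limma-trend adjusted p = 5.5e-07) and -0.70 ± 0.07 for HHF2 (2.97e-07), and 3.43% of all genes tested had a lower fold change than HHF2. The summed level of the pair averaged 7453 ± 115 in 9Myc-Swd2 and 12039 ± 562 in WT (SD, n = 2 each), which is 38.1% lower.

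The other H3 and H4 pair, HHT1-HHF1, fell less. HHF1, an H4 gene, was at 4141 and 4329.7 normalized counts in 9Myc-Swd2, against 5299 and 5569 in WT, and fell by 0.36 ± 0.07 on the log2 scale (limma-trend adjusted p = 0.000492). HHT1, an H3 gene and the lowest of the core histone genes, was at 1759.8 and 2233 in 9Myc-Swd2, against 2321 and 2583 in WT. The second 9Myc-Swd2 library was close to the first WT library for HHT1, and the groups were separated by only a small gap. The estimate for HHT1, -0.30 ± 0.09 (limma-trend adjusted p = 0.0120), was -0.13 without 9Myc-Swd2 replicate 1 (adjusted p = 0.157), -0.48 without 9Myc-Swd2 replicate 2 and -0.23 without WT replicate 2 (adjusted p = 0.171). The adjusted p of HHT1 was 0.180 when limma used no trend and 0.214 with no filter on low values. The summed level of the pair averaged 6232 ± 468 in 9Myc-Swd2 and 7886 ± 376 in WT (SD, n = 2 each), which is 21.0% lower.

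The H2A and H2B pairs differed in the same way. HTA2, an H2A gene, was at 3169 and 4022 normalized counts in 9Myc-Swd2, against 5583 and 5933 in WT, which gave -0.69 ± 0.09 on the log2 scale (limma-trend adjusted p = 9.22e-06). The 9Myc-Swd2 libraries lay farther apart for this gene than for its partner, yet both were well below WT. HTB2, the H2B partner, was at 3346 and 3201 in 9Myc-Swd2, against 4622 and 4822 in WT, a log2 fold change of -0.53 ± 0.07 (7.31e-06). The summed level of HTA2-HTB2 averaged 6869 ± 501 in 9Myc-Swd2 and 10479 ± 389 in WT (SD, n = 2 each), which is 34.5% lower.

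The pair HTA1-HTB1 fell less than HTA2-HTB2. HTA1, for H2A, was at 3648 and 4128 normalized counts in 9Myc-Swd2, against 4976 and 5339 in WT, and fell by 0.41 ± 0.08 on the log2 scale (limma-trend adjusted p = 0.000318). HTB1, for H2B, was at 2807 and 2579.7 in 9Myc-Swd2, against 3218 and 3346 in WT. Its groups did not overlap, and at -0.29 ± 0.07 (limma-trend adjusted p = 0.00283) it had a fall close to that of HHT1. Without 9Myc-Swd2 replicate 1 HTB1 was at -0.35 and HHT1 at -0.13, so the order of this pair of genes depended on the libraries. Its adjusted p was 0.0599 without WT replicate 2, and 0.0597 when limma used no trend. The summed level of the pair averaged 6582 ± 178 in 9Myc-Swd2 and 8439.8 ± 347 in WT (SD, n = 2 each), which is 22.0% lower.

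**Figure D2:**
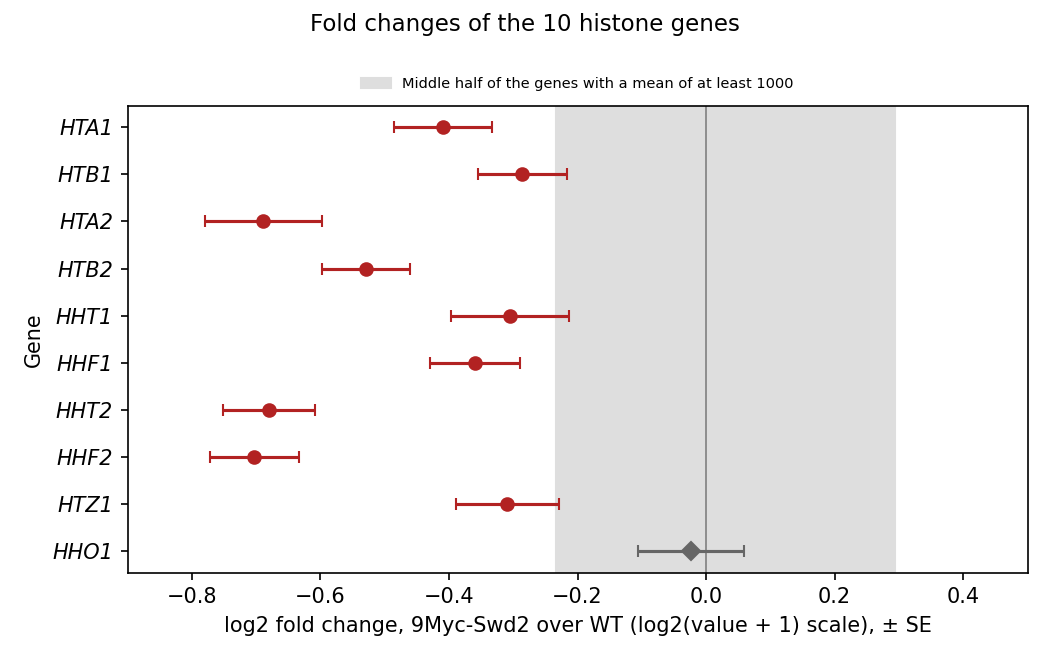
Log2 fold change of 9Myc-Swd2 over WT for each histone gene, with its standard error. Circles passed the threshold, the diamond (HHO1) did not, and the grey band spans the middle 50% of genes with a mean of at least 1000 normalized counts, -0.23 to 0.29. HHF2, HTA2 and HHT2 lie farthest below the band.

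The balance between the copies of each histone gene differed between the groups in every library, though the design is too small for a test to pass. Copies of a histone gene have the same coding length, so their counts can be set side by side. HHF2 gave 46.0% and 45.8% of the H4 counts in 9Myc-Swd2 and 51.8% and 51.9% in WT. HHT2 gave 68.6% and 63.4% of the H3 counts in 9Myc-Swd2 and 71.9% and 71.3% in WT. Each share was lower in both 9Myc-Swd2 libraries than in either WT library, and the differences of the means were -5.94 percentage points for HHF2 and -5.62 for HHT2. The HHT2 difference was -8.21 without 9Myc-Swd2 replicate 1 and -3.02 without 9Myc-Swd2 replicate 2. HTA2 gave 46.5% and 49.4% of the H2A counts in 9Myc-Swd2, against 52.9% and 52.6% in WT. HTB2 gave 54.4% and 55.4% of the H2B counts in 9Myc-Swd2, against 59.0% in both WT libraries. HHF2 and HTA2 thus were the more abundant copies in both WT libraries and the less abundant copies in both 9Myc-Swd2 libraries. The exact two-sided permutation p of each of the 4 shares was 0.333, the smallest that 2 libraries against 2 allow.

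**Figure D3:**
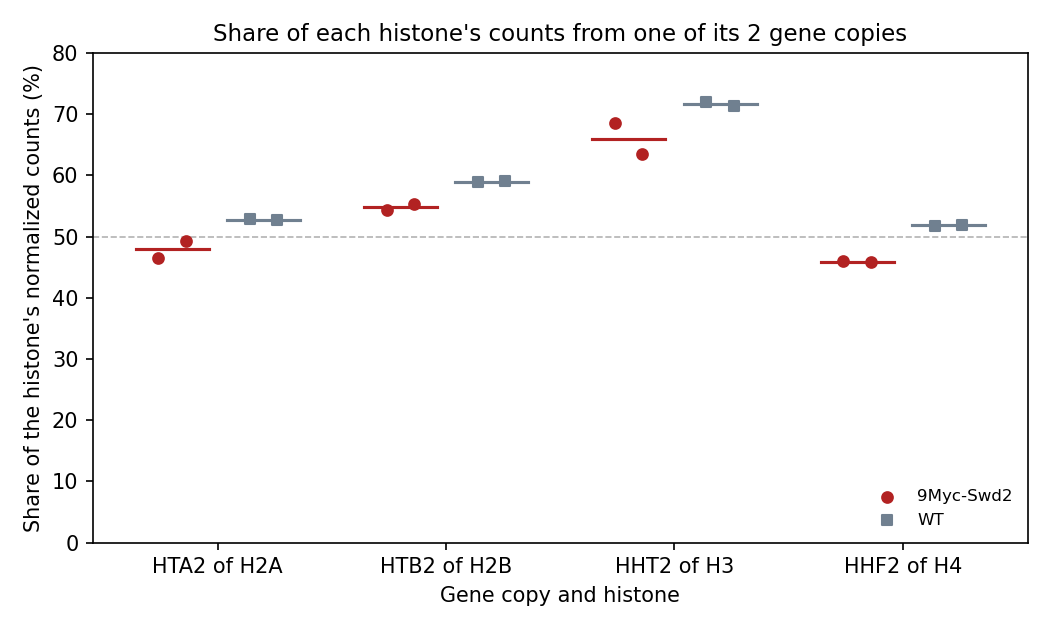
Share of a histone's normalized counts that came from HTA2, HTB2, HHT2 or HHF2, in percent, with circles for 9Myc-Swd2, squares for WT, a bar at each mean and a dashed line at 50%. All 4 shares are lower in both 9Myc-Swd2 libraries. HTA2 and HHF2 cross the dashed line.

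The log2 ratio of HHT2-HHF2 over HHT1-HHF1 was 0.32 and 0.20 in 9Myc-Swd2 and 0.61 in both WT libraries, a difference of -0.35. The log2 ratio of HTA2-HTB2 over HTA1-HTB1 was 0.01 and 0.11 in 9Myc-Swd2 and 0.32 and 0.31 in WT, a difference of -0.25. The groups overlapped in neither ratio, and the exact two-sided permutation p was 0.333 for both. Within the pairs the picture was different. Per kb of coding length, the log2 ratio of HHT2 over HHF2 was -0.27 and -0.32 in 9Myc-Swd2 and -0.33 and -0.30 in WT. The groups overlapped in this ratio, as they did for the partners of the other 3 pairs. For HTA2 over HTB2 the 9Myc-Swd2 libraries were at -0.09 and 0.32, around the WT values of 0.26 and 0.29.

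Reads of the copies can be told apart only where their sequences differ. The coding sequences were 97.4% identical between HHF1 and HHF2, which differ at 8 of 312 bases. They were 93.7% identical between HTA1 and HTA2, 93.2% between HHT1 and HHT2, and 87.9% between HTB1 and HTB2. Of all stretches of 50 bases, 21.3% of those in HHF1 and in HHF2 occurred elsewhere in the genome. This share was 12.2% for HHT1 and HHT2, 4.57% for HTA1 and HTA2, and 0 for HTB1, HTB2, HTZ1 and HHO1. No stretch of 100 bases in any of the 10 genes occurred a second time. The read length and the treatment of reads with several matches are not stated, so the values of single H4 and H3 copies are the least certain.

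Summed over copies and divided by coding length, the core histones were lower in 9Myc-Swd2 by 25.5% to 32.2%. The summed level of H4 averaged 25096 ± 739.8 normalized counts per kb in 9Myc-Swd2 and 36173 ± 1336 in WT (SD, n = 2 each), which is 30.6% lower. H3 averaged 14246 ± 857 per kb in 9Myc-Swd2 and 21021 ± 1271 in WT, 32.2% lower. H2A averaged 18756 ± 2363 per kb in 9Myc-Swd2 and 27357 ± 1263 in WT, 31.4% lower. H2B averaged 15068 ± 666 per kb in 9Myc-Swd2 and 20212 ± 586 in WT, 25.5% lower. In none of the 4 histones did the groups overlap. The ratio of H3 plus H4 over H2A plus H2B per kb was 1.17 and 1.16 in 9Myc-Swd2 and 1.20 and 1.21 in WT, 3.23% lower, and the exact two-sided permutation p was 0.333. The H3 over H4 ratio, at 0.555 and 0.580 in 9Myc-Swd2 and 0.571 and 0.591 in WT, overlapped between the groups. So did the H2A over H2B ratio, at 1.10 and 1.40 in 9Myc-Swd2 and 1.34 and 1.37 in WT. The 9Myc-Swd2 libraries lay farther apart in it than the WT libraries.

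HTZ1, the H2A.Z gene, was at 524 and 525 normalized counts in 9Myc-Swd2, against 658 and 643 in WT. The groups did not overlap, and HTZ1 fell by 0.31 ± 0.08 on the log2 scale (limma-trend adjusted p = 0.00447). Without WT replicate 1 the adjusted p of HTZ1 was 0.0613. Of the counts per kb of HTZ1 and the H2A genes together, HTZ1 held 7.04% and 5.97% in 9Myc-Swd2 and 5.78% and 5.32% in WT, a narrow gap with an exact two-sided permutation p of 0.333.

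HHO1, the linker histone gene, was at 574 and 557 normalized counts in 9Myc-Swd2, against 553 and 598 in WT. Its 9Myc-Swd2 values lay between the WT values, and its log2 fold change was -0.02 ± 0.08 (limma-trend adjusted p = 0.846). Over the alternative settings its log2 fold change lay between -0.08 and 0.03. Set against the mean of the 4 core histones per kb, HHO1 stood at 4.17% and 3.80% in 9Myc-Swd2 and at 2.80% and 2.85% in WT. These groups did not overlap, and the exact two-sided permutation p was 0.333.

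By level per kb of coding length the order of the 10 genes in WT was HHF2 (18755 ± 724), HHF1 (17418 ± 611), HHT2 (15055 ± 819), HTA2 (14430.3 ± 620.4), HTA1 (12926 ± 643), HTB2 (11924 ± 357), HTB1 (8288 ± 229), HHT1 (5966 ± 452), HTZ1 (1606 ± 24.9) and HHO1 (741 ± 40.6). In 9Myc-Swd2 it was HHF1 (13574 ± 429), HHF2 (11522 ± 311), HTA1 (9745 ± 850.3), HHT2 (9388 ± 42.9), HTA2 (9011 ± 1513), HTB2 (8266 ± 260.1), HTB1 (6802 ± 406), HHT1 (4857 ± 814), HTZ1 (1296 ± 1.72) and HHO1 (728 ± 15.2). In WT the libraries of neighbours in this order overlapped only for HHT2 and HTA2. In 9Myc-Swd2 they overlapped for HTA1 and HHT2, for HHT2 and HTA2, and for HTA2 and HTB2. The order of these neighbours is not resolved there, though both libraries of HTB2 lay below those of HTA1 and of HHT2.

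Of the 2 nearest annotated genes on each side of each locus, 22 were tested. Of these 2 fell, 8 rose and 12 did not pass. They lie off chromosome XI, where 22.6% of all genes fell and 18.5% rose. Without WT replicate 2 the number of neighbours higher was 3 and the number lower 1, and without WT replicate 1 the number higher was 5. The number lower was 4 without 9Myc-Swd2 replicate 1. Beside HHT2-HHF2, SIW14 and KTR5 had log2 fold changes of -0.17 and 0.13, and neither passed. Beside HTA2-HTB2, UTP20 had 0.20 and rose, and ECM15 had 0.06 and did not pass. UTP20 lost its call in the authors' deposited table (adjusted p = 0.0540). It also lost it under quantile normalization (limma adjusted p = 0.0625), scaling to total counts (0.104), no filter (0.0630) and no trend (0.109). Beside HHT1-HHF1, the drug transporter gene FLR1 rose by 0.65 and IPP1, for inorganic pyrophosphatase, had -0.05. ADK1, the adenylate kinase gene beside HTA1, fell (-0.28). Near HHO1, TAF14 fell (-0.45), TBF1 (0.42) and KAP120 (0.44) rose, and NAN1 (0.09) did not pass. Near HTZ1, RCL1 rose (0.40), and HRD1 (0.02) and PLB3 (-0.12) did not pass. With no filter on low values TBF1 lost its call (limma adjusted p = 0.0682). Without WT replicate 2 the limma adjusted p was 0.260 for UTP20 and 0.104 for ADK1.

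Of 12 regulators of histone transcription 4 rose, 3 fell and 5 stayed short of the threshold, with a median log2 fold change of 0.07. All 12 lie off chromosome XI, where 18.5% of all genes rose and 22.6% fell. SPT10, for the activator that binds the element shown above, was at 724 and 680.5 normalized counts in 9Myc-Swd2, against 496 and 436 in WT, and rose (0.59 ± 0.09, limma-trend adjusted p = 3.17e-05). SPT21, for its partner at histone promoters, had -0.09 ± 0.10 and did not pass. Among the genes of the HIR complex, HIR1 rose (0.44 ± 0.09), HIR2 fell (-0.31 ± 0.09), and HIR3 (0.09) and HPC2 (-0.07) did not pass. ASF1, the H3-H4 chaperone that works with HIR, was at 861 and 918 in 9Myc-Swd2, against 1200.4 and 1405 in WT, and fell (-0.55 ± 0.08, limma-trend adjusted p = 3.22e-05). RTT106, another H3-H4 chaperone of this pathway, fell too (-0.41 ± 0.08), and YTA7, for a boundary ATPase at histone genes, rose (0.26 ± 0.07). Of the cell cycle transcription factors, MBP1 rose (0.38 ± 0.10), while SWI4 (0.10) and SWI6 (0.05) did not pass. The call of HIR2 was lost without WT replicate 1 (limma adjusted p = 0.144), and that of MBP1 without 9Myc-Swd2 replicate 1 (0.0535) or WT replicate 2 (0.0728). In the authors' deposited table the adjusted p of HIR2 was 0.0693. With limma without a trend, the adjusted p was 0.0585 for HIR2, 0.110 for MBP1 and 0.0569 for YTA7.

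Of 15 histone chaperones and importers 9 fell and 3 rose, with a median of -0.22, beside 21.4% lower and 22.3% higher among all genes. Of the 14 off chromosome XI 9 fell and 2 rose, beside 22.6% lower and 18.5% higher among all genes off it. RLF2, the large subunit of the CAF-1 assembly factor, fell to 1198 ± 19.2 normalized counts in 9Myc-Swd2, against 1702 ± 157 in WT (SD, n = 2 each). HIF1 and HAT2, of the complex that acetylates new histone H4, fell as well (-0.52 and -0.37). NAP1, an H2A-H2B chaperone gene on chromosome XI, was at 4225 ± 258 in 9Myc-Swd2 and 2257 ± 115 in WT and rose (0.90 ± 0.07). The number of members lower was 5 without WT replicate 1 and 2 without WT replicate 2, and the number higher was 1 without 9Myc-Swd2 replicate 1, WT replicate 1 or WT replicate 2. The higher count was also 1 under quantile normalization or scaling to total counts. HIF1 lost its call without WT replicate 2 (limma adjusted p = 0.0836), and both HIF1 (0.0758) and HAT2 (0.0961) lost theirs with no trend.

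In the SWR1 complex, which deposits Htz1, 3 of 13 genes fell and 1 rose, with a median of -0.04. All 13 lie off chromosome XI. Their share lower was close to the 22.6% of all genes there, and their share higher was under the 18.5%. ARP4 fell (-0.52 ± 0.08), as did RVB1 (-0.37 ± 0.07), while the ATPase gene SWR1 rose (0.39 ± 0.08). SWC3 fell too (-0.31 ± 0.08), and without WT replicate 2 neither SWC3 (limma adjusted p = 0.169) nor SWR1 (0.0641) passed. Of 11 enzymes that acetylate, deacetylate or methylate histones outside COMPASS, 3 fell and 1 rose. All 11 lie off chromosome XI too, so they stand beside the same shares of all genes there. RPD3, a histone deacetylase gene, was at 867 and 891 normalized counts in 9Myc-Swd2, against 1393 and 1478 in WT, and fell (-0.71 ± 0.07, limma-trend adjusted p = 3.05e-07). The acetyltransferase gene GCN5 (-0.26 ± 0.08) and the deacetylase gene HST4 (-0.37 ± 0.14) fell, but neither passed without WT replicate 1 or without WT replicate 2. SIR2, the silencing deacetylase gene, rose (0.36 ± 0.12), with limma adjusted p of 0.259, 0.151 and 0.0728 without 9Myc-Swd2 replicate 1, WT replicate 1 or WT replicate 2. Without 9Myc-Swd2 replicate 2 the number higher was 2 in each of these lists. In the authors' deposited table the adjusted p was 0.0865 for GCN5, 0.185 for HST4 and 0.0878 for SIR2.

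Of 8 genes for the removal of surplus histones or their mRNA, 2 rose and 6 did not pass the threshold. All 8 lie off chromosome XI, where 18.5% of all genes rose. TOM1, a ubiquitin ligase gene, rose (0.37 ± 0.07), as did TRF5 (0.60 ± 0.09), for a nuclear poly(A) polymerase of RNA surveillance. Among other chromatin proteins, CSE4, the centromeric H3 variant gene on chromosome XI, was at 702 and 650.2 normalized counts in 9Myc-Swd2, against 435 and 441 in WT, and rose (0.62 ± 0.08). The HMG-box gene NHP6A fell (-0.56 ± 0.13), as did HMO1 (-0.23 ± 0.07), but without WT replicate 2 the limma adjusted p was 0.101 for NHP6A and 0.194 for HMO1.

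Genes of the cell cycle phases were counted because histone mRNA belongs to S phase. Of 22 DNA replication genes of the G1/S transition, 7 fell and 3 rose, with a median of -0.08, beside 21.4% lower and 22.3% higher among all genes. Of the 20 off chromosome XI 7 fell and 1 rose, beside 22.6% lower and 18.5% higher among all genes off it. MCD1, a cohesin gene, was at 774 and 697 normalized counts in 9Myc-Swd2, against 1141 and 1090.5 in WT, and fell (-0.60 ± 0.08). The S phase cyclin gene CLB6 fell to 55.7 ± 8.14 in 9Myc-Swd2, against 110.0 ± 4.37 in WT (SD, n = 2 each). RAD27 (0.65) and PRI2 (0.53), which rose, lie on chromosome XI. The number lower was 4 without WT replicate 1 and 4 without WT replicate 2. In the CLB2 cluster of G2/M genes 5 of 14 rose and 2 fell. All 14 lie off chromosome XI, where 18.5% of all genes rose and 22.6% fell. The 2 that fell were CLB1 (-0.79 ± 0.11) and CLB2 (-0.43 ± 0.11), both B-type cyclin genes. Those that rose included BUD3 (0.39 ± 0.07), for a bud site protein. Without WT replicate 2 the number higher was 2, and without WT replicate 1 the number lower was 1. Of 14 M/G1 genes 7 rose, with a median of 0.20, beside 22.3% of all genes, and of the 12 off chromosome XI 5 rose, with a median of 0.15, beside 18.5% of all genes off that chromosome. DSE4, a glucanase gene of cell separation, was at 2821 and 2581 in 9Myc-Swd2, against 963 and 918 in WT, and rose (1.52 ± 0.07). The part of cell cycle phase in the histone values was not tested.

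**Figure D4:**
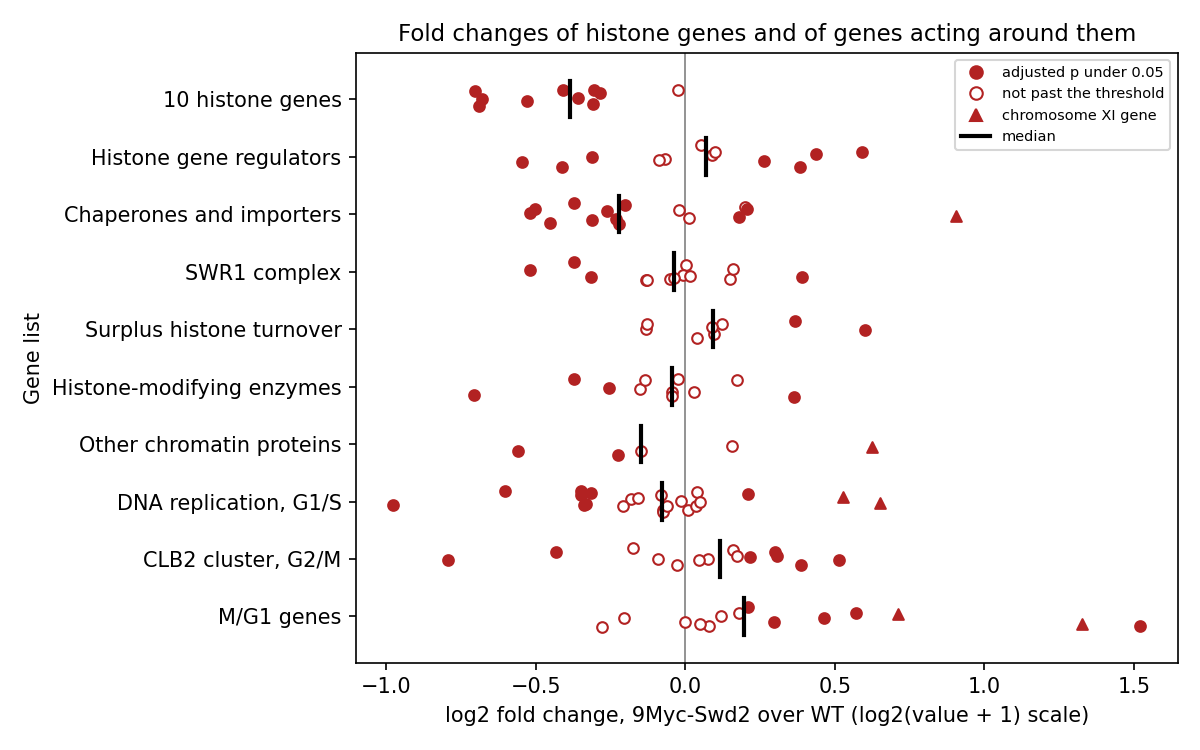
Log2 fold change of 9Myc-Swd2 over WT for each histone gene and each member of 9 gene lists, with filled symbols for genes past the threshold, triangles for chromosome XI genes and a black bar at the median of each list. The histone genes lie below 0, with HHO1 nearest to it, and each of the 9 lists has members on both sides of 0.

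Among 1869 other genes with a mean of at least 1000, those whose centred log2 values lay nearest to the mean profile of the 8 core histone genes were CPR3, ARL1, MRI1, VMA8 and YRB1. Their Euclidean distances over the 4 libraries were 0.031 to 0.037, against 0.10 to 0.26 for the core histone genes themselves. YRB1, a Ran-binding protein gene of nuclear transport, was at 4187 and 4521 normalized counts in 9Myc-Swd2, against 5854 and 6139 in WT. With 4 libraries in 2 groups, this measure follows mainly the difference between the groups.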

How the data were processed

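RNA sequencing of 4 libraries was analysed, 2 of 9Myc-Swd2 and 2 of WT, grouped and numbered by their titles. The submitters' processing notes name bcl2fastq 1.8.4 and the sacCer3 build. The aligner, the counter, the use of strand in counting and any poly(A) selection are not stated in the sources at hand. The library columns of the table the authors deposited hold a signal, normalized counts scaled by 1 factor per library. Every value was a whole multiple of 1 step per column, to within 1e-06 steps, and the sums given for depth are column sums divided by that step, with no check that a step is 1 read in each column. The authors deposited their own comparison, whose file headers name log2 fold changes, a score (the test statistic), and raw and adjusted p-values. The score and a deposited pair of columns that by their values hold log10 group means were not used.

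limma 3.58.1 (R 4.3.3) was fitted with a trend to log2(value + 1) of the 6503 genes with a mean of at least 1, with the group as the only term, and p-values were adjusted over all of them by the Benjamini-Hochberg method. Values of single libraries, such as shares, were compared with an exact two-sided permutation test. Coding lengths, positions and sequences came from RefSeq R64. The fit was tested on simulated data. Replicates differed by more than sampling noise, with a chi-square per gene of 8.66 for the 9Myc-Swd2 pair and 3.37 for the WT pair. The precision of a value is that of 2 libraries.

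The members and gene lists were chosen with earlier results of these data known. Named genes were the 10 histone genes, SWD2, CSE4, all histone transcription regulators, up to 4 members past the threshold with the smallest p in each other list, the 2 nearest annotated genes per side of each locus, and the 5 nearest profiles. CLB2 was named after its value was seen, to complete a count. Some genes that the rule takes in are not reported here. The count tests planned for the case of recovered reads were not run, and the comparison the authors deposited served as an alternative.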

Additional observations from a re-analysis of the deposited data

How the results depend on the processing

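Each of the 10 histone genes was refitted under 13 alternatives, and its direction held wherever it passed the threshold. HTA1, HTA2, HTB2, HHF1, HHT2 and HHF2 passed in all 13. With no trend in limma HTB1 (-0.29, adjusted p = 0.0597) and HHT1 (-0.30, adjusted p = 0.180) did not pass, and with no filter HHT1 did not (-0.30, adjusted p = 0.214). With 1 library left out in turn, log2 fold changes ranged from -0.35 to -0.23 for HTB1, -0.48 to -0.13 for HHT1 and -0.33 to -0.29 for HTZ1, and each lost the call at least once. A lone library left in a group is assumed to vary like the other group. The number of genes lower was 847 with no filter, 882 with limma without a trend and between 780 and 1440 with a library left out, and the number higher was 950 with no filter. The cause was not tested.

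Under scaling to total counts the log2 change of the summed pair was -0.42 for HTA1-HTB1 and -0.75 for HHT2-HHF2. Under quantile normalization the difference in share was -3.34 percentage points for HTB2 and -6.26 for HHF2. Those scalings moved the median of all genes by -0.06 and -0.03. Size factors without chromosome XI genes moved it by 0.02, and all 9 histone calls passed there.

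With the replicate number as a block, all 9 histone genes that fell still passed, and 1619 genes were higher and 1566 lower. The labels do not say what a replicate number shares, and the replicate differences of both groups correlated at 0.17 across genes. edgeR and DESeq2 were not run. With 2 libraries per group, copy shares and ratios could not reach the threshold.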
